A study of Homo sapiens with 6 samples.

Results

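The nuclear genes for subunits of oxidative phosphorylation were examined in LNCaP cells after transfection with siRNA against TCTP. Members were the genes whose current symbols start with NDUFA, NDUFB, NDUFC, NDUFS, NDUFV, UQCR, COX4, COX5, COX6, COX7, COX8 or ATP5, without the NDUFAF assembly factors, together with SDHA, SDHB, SDHC, SDHD and CYC1. By this rule 77 of the 18665 genes with a named probe were members, and they were covered by 104 of the 48803 probes on the array. LNCaP is an androgen-responsive line from a lymph node metastasis of a prostate cancer. One group, TCTP siRNA, consisted of 3 cultures treated with 100 nM of siRNA against TCTP, a growth-related protein encoded by TPT1. The other, Luc siRNA, consisted of 3 cultures treated with 100 nM of siRNA against luciferase, which human cells lack. Both were harvested at 72 h, and each RNA was hybridised to 1 Illumina HumanWG-6 v3 array. The series record calls the samples biological replicates, each target was addressed with a single siRNA sequence, and the sources used here do not say whether the cultures came from separate days. If they did not, the p-values measure only the spread between these samples, which may be technical.

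Oxidative phosphorylation takes place in the inner mitochondrial membrane. Complexes I and II take electrons from NADH and succinate, ubiquinone and cytochrome c carry them through complex III to complex IV, where oxygen is reduced, and complexes I, III and IV pump protons. Complex V, the ATP synthase, uses the proton gradient to make ATP. Most subunits are encoded in the nucleus, the remainder in mitochondrial DNA, so that the stoichiometry of complexes I, III, IV and V depends on both genomes. Prostate luminal cells are known for secreting citrate and for a citrate cycle that runs only in part, a state that prostate cancer cells tend to leave.

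Signals are quantile-normalized log2 intensities throughout, without background subtraction, which compresses changes of dim probes. Whether changes of the brightest probes are compressed too was not tested. The highest mean signal of a tested member was 13.9, and that of any gene tested was 14.3. A probe had to be detected (p under 0.01) on 3 or more of the 6 arrays for its gene to be tested, and the gene's detected probe with the highest mean signal represented it. Median intensities before normalization ranged from 35.6 to 43.4, and 12828 to 13741 probes were detected per array. TPT1 was measured by a pair of probes. One gave 12.95, 13.17 and 13.23 with Luc siRNA and 12.25, 12.47 and 12.39 with TCTP siRNA, and fell by 0.75 log2 units (limma over probes, SE 0.11, adjusted p = 0.0033). The other, brighter probe gave 14.22, 13.98 and 14.17 against 13.92, 13.83 and 14.05, a change of -0.19 (adjusted p = 0.471). On these arrays the check of the target therefore rests on the first probe. Luminal markers were detected on all 6 arrays for 7 of 7 genes with a probe, among them KLK2 and TMPRSS2. None of the basal, fibroblast or leukocyte markers with a probe was detected on any array, while the endothelial marker VWF was detected on 6 and CDH5 and PECAM1 on 0. A lower signal of a gene in such bulk RNA cannot tell fewer cells that express it from less RNA per cell.

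Of the 77 members, 70 were tested, and 69 of these were detected on all 6 arrays. The exception was NDUFB1, detected on 4 arrays. No member passed an adjusted p of 0.05 between TCTP siRNA and Luc siRNA (limma, Benjamini-Hochberg over 8968 genes), where 229 of all genes tested, 2.55%, did so, 136 of them (1.52%) lower and 93 (1.04%) higher. At an unadjusted p under 0.05 there were 2 members, ATP5PB and NDUFA1, both lower with TCTP siRNA, where 15.6% of all genes passed, 8.05% lower and 7.59% higher. The smallest adjusted p of a member was 0.226. The log2 changes ran from -0.26 to 0.25 with a median of 0.02, beside a median of 0.0011 for all genes, and 31 were negative and 39 positive. For 43 of the 70, or 61.4%, the change was under 0.1 in size, compared with 45.6% of all genes tested. These shares were not matched for signal or for spread within groups, where the median pooled SD was 0.119 for the members and 0.131 for all genes. With all 6 arrays and on the probe that represents each gene, the 95% interval of all 70 members lay within a 1.5-fold change in either direction. The outermost bounds were 0.709-fold and 1.43-fold. Among all genes tested, 8255 of 8968 had intervals within the same limits. The second probe of UQCRH, fitted over probes, had an interval from 0.02 to 0.61 log2 units, past the limit of 0.585. These intervals do not show that the members were equal between the groups, only that larger differences lie outside them.

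**Figure D1:**
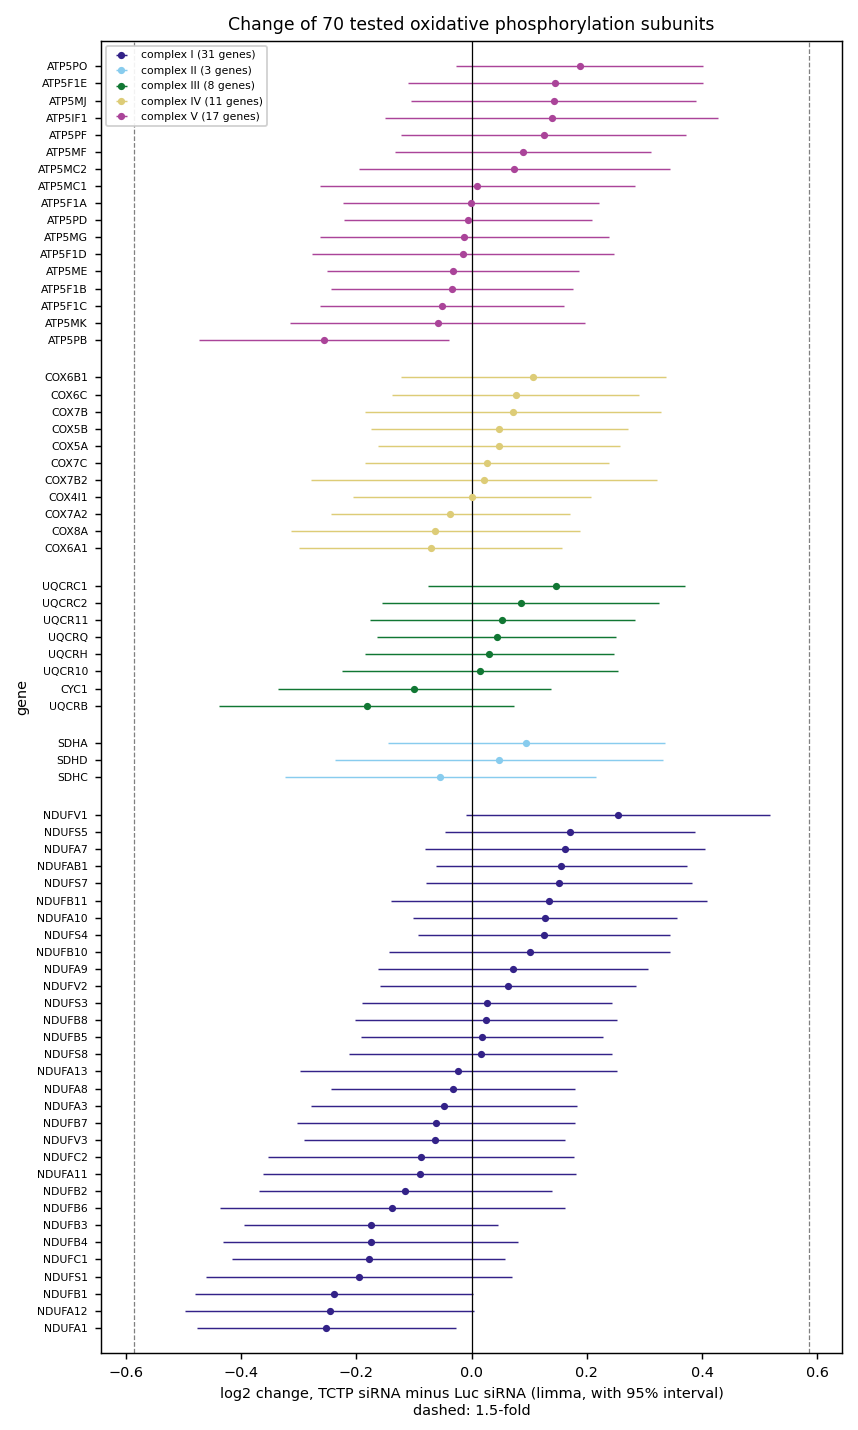
Log2 change of each of the 70 tested subunits between TCTP siRNA and Luc siRNA (x axis, points with 95% intervals from limma, 3 arrays per group), with genes on the y axis ordered by change within their complex and dashed lines at 1.5-fold. All 70 intervals lie between the dashed lines, and only those of NDUFA1 and ATP5PB do not cross 0.

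The upstream sequences of the members are shown because these genes are known for sharing binding motifs of the transcription factors NRF1, GABPA, which belongs to the ETS family, and YY1. A promoter of 300 bases, 250 before and 50 after the annotated start, was listed by RefSeq (GRCh38.p14) for 65 members. Of these, 18, or 27.7%, held the NRF1 core TGCGCA, compared with 8.42% of all 27305 promoters listed. The ETS motif CCGGAAG was in 19 members, 29.2% against 10.7%, and the YY1 motif AAGATGG in 14, 21.5% against 6.06%. All were searched on both strands. The longer, 10-letter palindrome of NRF1 was in 4 members, 6.15% against 1.36%, and overlaps the core where a T precedes or an A follows it. At least 1 of the NRF1 core, ETS and YY1 motifs was in 37 of 65 members, 56.9%, against 22.2% of all promoters. The median GC content was 61.0% in the members and 58.3% in all promoters, with ranges from 37% to 74.7% and from 6.67% to 94%. The comparison was not matched for GC content or for the type of gene. A match is a run of letters and not a measured site. The 250 bases before the start are given below for examples from complexes I to IV that hold the NRF1 core or the ETS motif, 5′ to 3′ on the strand of the gene, with the matched motifs in capitals. They lie at chrX:119871582-119871831 for NDUFA1, chr5:218070-218319 for SDHA, chr11:112086623-112086872 for SDHD, chr1:46303448-46303697 for UQCRH and chr19:35648073-35648322 for COX6B1, each on the plus strand.
NDUFA1: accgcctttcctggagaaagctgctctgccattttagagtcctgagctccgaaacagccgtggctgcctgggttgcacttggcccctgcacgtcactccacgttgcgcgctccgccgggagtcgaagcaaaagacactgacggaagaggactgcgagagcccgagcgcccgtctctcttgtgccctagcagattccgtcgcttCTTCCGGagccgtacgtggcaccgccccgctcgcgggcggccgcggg
SDHA: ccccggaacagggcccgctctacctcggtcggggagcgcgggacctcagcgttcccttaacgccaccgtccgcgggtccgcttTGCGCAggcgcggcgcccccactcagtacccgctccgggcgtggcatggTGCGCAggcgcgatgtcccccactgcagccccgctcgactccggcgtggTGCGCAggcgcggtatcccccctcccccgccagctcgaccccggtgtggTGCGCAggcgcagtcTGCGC
SDHD: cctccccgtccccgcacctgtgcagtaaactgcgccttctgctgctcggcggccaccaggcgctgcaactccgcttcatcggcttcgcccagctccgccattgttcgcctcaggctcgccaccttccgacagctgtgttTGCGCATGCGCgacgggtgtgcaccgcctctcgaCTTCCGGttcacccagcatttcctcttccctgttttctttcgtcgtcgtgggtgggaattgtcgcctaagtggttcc
UQCRH: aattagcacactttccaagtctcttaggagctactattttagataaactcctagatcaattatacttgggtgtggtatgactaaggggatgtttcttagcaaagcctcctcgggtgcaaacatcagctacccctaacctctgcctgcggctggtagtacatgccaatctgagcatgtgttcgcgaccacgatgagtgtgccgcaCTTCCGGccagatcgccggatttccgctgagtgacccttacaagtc
COX6B1: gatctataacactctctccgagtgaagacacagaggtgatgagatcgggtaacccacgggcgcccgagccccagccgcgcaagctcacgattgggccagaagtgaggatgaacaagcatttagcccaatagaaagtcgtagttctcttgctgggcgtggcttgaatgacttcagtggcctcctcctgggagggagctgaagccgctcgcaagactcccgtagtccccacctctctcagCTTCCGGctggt
NDUFA1, UQCRH and COX6B1 each carried the reverse complement of the ETS motif, starting 47, 46 and 12 bases before the start. SDHD held the NRF1 core 111 bases upstream, joined to the longer palindrome that starts 1 base further on, and an ETS motif 77 bases upstream. SDHA held the NRF1 core 5 times, starting 167, 118, 69, 20 and 5 bases before the start, and the last of these runs past the end of the printed stretch. Tested members with the NRF1 core had a median log2 change of 0.04 (16 genes) and those without it 0.02 (44 genes). The medians with and without a match were -0.01 and 0.03 for the ETS motif and 0.08 and 0.02 for the YY1 motif. These differences were not tested, and the ranges of the changes with and without each motif overlapped.

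Complex I, the NADH dehydrogenase that starts the chain, had 31 tested members with a median log2 change of -0.02. Its 6 core subunits, which carry the flavin and the iron-sulfur clusters, had a median of 0.05, and its 25 accessory subunits, which surround and stabilise the core, a median of -0.05. Of the complex I members, NDUFA1, a small accessory subunit of the membrane arm, had the smallest p. Its signals were 13.24, 13.23 and 13.40 with Luc siRNA and 12.97, 13.16 and 12.97 with TCTP siRNA. The 3 TCTP siRNA arrays lay below the 3 Luc siRNA arrays, with replicate 2 of TCTP siRNA nearest to the control. The change was -0.25 log2 units (SE 0.10, adjusted p = 0.249), which is not past the threshold. NDUFB1, also an accessory subunit, read 6.23, 6.12 and 6.09 with Luc siRNA and 5.83, 6.11 and 5.78 with TCTP siRNA, near the detection limit, where 3 Luc siRNA arrays and 1 TCTP siRNA array passed detection. Its groups overlapped through replicate 2, and its change was -0.24 (adjusted p = 0.324).

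Other complex I genes are described here because of their values. NDUFA12, an accessory subunit at the junction of the arms, gave 11.19, 11.23 and 11.34 against 10.92, 11.24 and 10.86 with TCTP siRNA, a change of -0.25 (adjusted p = 0.330). Again replicate 2 sat within the control range while replicates 1 and 3 lay under it. NDUFV1, the core subunit that binds NADH and flavin, gave 10.15, 10.09 and 10.27 against 10.53, 10.58 and 10.16, a change of 0.25 (adjusted p = 0.338). Here replicate 3 was the one inside the control range. NDUFB3, an accessory subunit of the membrane arm, gave 11.81, 11.89 and 11.75 against 11.52, 11.72 and 11.69 (change -0.17, adjusted p = 0.449), with no overlap of the groups. Its second probe had a change of -0.01. NDUFS5, an accessory subunit that faces the intermembrane space, was 12.79, 12.99 and 12.97 with Luc siRNA and 13.06, 13.08 and 13.13 with TCTP siRNA (0.17, adjusted p = 0.450). NDUFAB1, the mitochondrial acyl carrier protein, was 12.09, 12.22 and 12.20 against 12.26, 12.29 and 12.44 (0.16, adjusted p = 0.503). In NDUFS5 and NDUFAB1 every TCTP siRNA array was above every Luc siRNA array, by a margin smaller than the range among the Luc siRNA arrays.

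Groups that do not overlap were found for 6 members in all, 3 on each side, or 8.57% of the tested members, where 21.2% of all genes tested had such groups, 10.8% lower and 10.4% higher. On the lower side these were ATP5PB, NDUFA1 and NDUFB3, and on the higher side NDUFS5, NDUFAB1 and ATP5PO. None of the 6 was called.

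**Figure D2:**
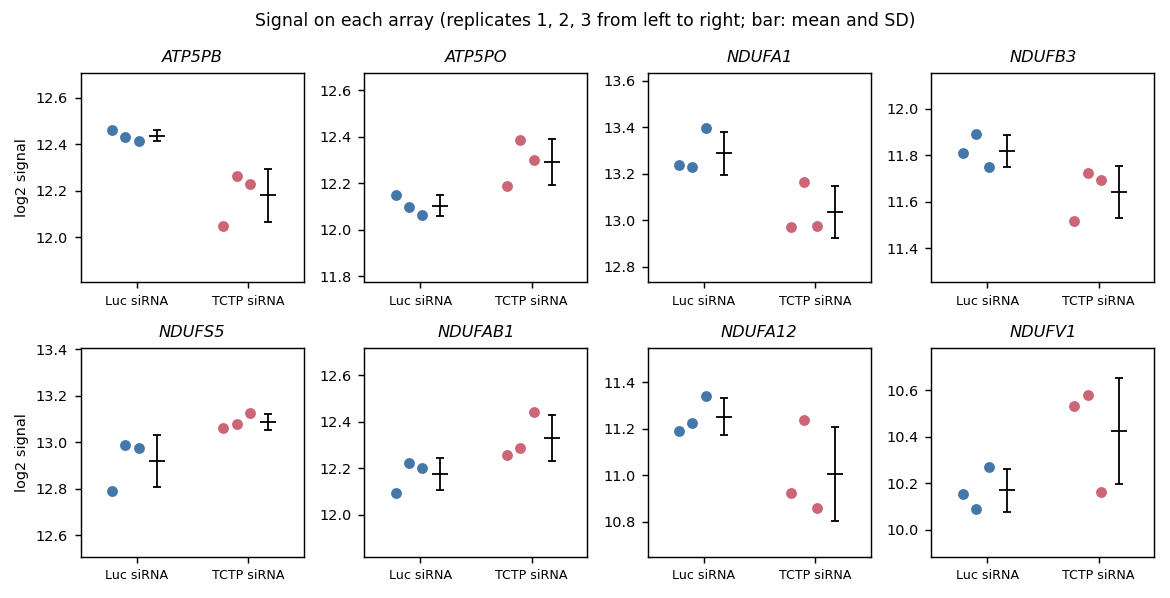
Log2 signal (y axis, a separate range for each gene, all of equal height) of 8 subunits on each Luc siRNA and TCTP siRNA array, with the group mean and SD of 3 arrays as bars. In NDUFA12 replicate 2 and in NDUFV1 replicate 3 of TCTP siRNA lie among the controls, while the groups of the first 6 genes do not overlap.

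Complex II, succinate dehydrogenase, also belongs to the citrate cycle, and its 3 tested genes had a median log2 change of 0.05. SDHA, the flavoprotein that oxidises succinate, gave 9.65, 9.63 and 9.86 with Luc siRNA and 9.90, 9.88 and 9.64 with TCTP siRNA. Its change was 0.10 (SE 0.11, adjusted p = 0.738). The membrane anchor SDHC gave 9.72, 9.96 and 9.94 against 9.76, 10.06 and 9.63, a change of -0.05 (adjusted p = 0.872), and its second probe had a change of -0.04. The other anchor, SDHD, gave 10.19, 9.83 and 9.98 against 9.78, 10.17 and 10.19, a change of 0.05 (adjusted p = 0.897). In all 3 genes the groups overlapped over most of their range. SDHB, the iron-sulfur subunit, was not analysed here.

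Complex III, which passes electrons from ubiquinol to cytochrome c, had 8 tested members and a median of 0.04. UQCRC1, a core protein on the matrix side, read 9.89, 10.06 and 10.16 with Luc siRNA and 10.22, 10.20 and 10.13 with TCTP siRNA (0.15, SE 0.10, adjusted p = 0.541). Only the lowest TCTP siRNA array fell inside the control range. UQCRC2, its partner, and CYC1, the cytochrome that hands electrons to cytochrome c, had changes of 0.09 and -0.10. UQCRB, a small subunit that binds ubiquinone, read 10.38, 10.45 and 10.63 against 10.17, 10.52 and 10.21 on its brighter probe (-0.18, adjusted p = 0.506). Its dimmer probe went the other way, with 6.63, 6.58 and 6.52 against 6.50, 6.85 and 6.77 (0.13, adjusted p = 0.663 over probes). UQCRH, the hinge protein, read 13.33, 13.36 and 13.36 against 13.28, 13.50 and 13.37 on the probe that represents it, a change of 0.03 (adjusted p = 0.914). Its second probe read 9.21, 8.98 and 9.24 against 9.13, 9.67 and 9.57. That probe had a change of 0.31 (SE 0.14, adjusted p = 0.310 over probes), with replicate 1 of TCTP siRNA inside the control range. UQCRQ, a subunit next to cytochrome b, had a change of 0.04 (SE 0.10, adjusted p = 0.866).

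Complex IV, cytochrome c oxidase, had 11 tested members with a median of 0.03 and a range from -0.07 to 0.11, and for 90.9% of them the change was under 0.1 in size. COX4I1, the ubiquitous form of subunit 4, read 13.46, 13.42 and 13.41 with Luc siRNA and 13.39, 13.41 and 13.50 with TCTP siRNA. Its change was 0.0010 with a 95% interval from -0.21 to 0.21 (adjusted p = 0.997). COX6B1, on the intermembrane side where the dimer forms, read 12.32, 12.47 and 12.51 against 12.47, 12.69 and 12.47 (0.11, adjusted p = 0.680), and COX6C had a change of 0.08 (adjusted p = 0.763). COX7C, a small membrane subunit, read 13.92, 13.88 and 13.91 against 13.95, 14.01 and 13.83, a change of 0.03 (adjusted p = 0.924).

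Several complex IV subunits have a tissue form beside the general one, and here the general forms were detected and most tissue forms were not. COX4I1, COX6A1, COX6B1, COX7A2 and COX8A were detected on all 6 arrays. Probes of COX4I2, known from lung, of the heart and muscle forms COX6A2 and COX7A1, and of the testis forms COX6B2 and COX8C were detected on 0 of 6 arrays, with signals between 4.86 and 5.39. A signal under the detection limit gives a bound and does not show that a gene was absent. COX7B2, the testis paralog of COX7B, was the exception. It was detected on all 6 arrays, at 7.93, 7.79 and 8.02 with Luc siRNA and 7.60, 8.18 and 8.03 with TCTP siRNA, a change of 0.02 (SE 0.14, adjusted p = 0.961). COX7B read 11.44, 11.18 and 11.41 against 11.22, 11.45 and 11.58, a change of 0.07 (adjusted p = 0.817). COX6A1, COX7A2 and COX8A had changes of -0.07, -0.04 and -0.06. The complex I subunits NDUFA5 and NDUFS6 were also detected on no array, at 5.17 to 5.54.

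Complex V, the ATP synthase, had 17 tested members, all its genes with a probe, and a median of -0.0009. The 5 genes of the catalytic head and central stalk had a median of -0.01, the 4 of the peripheral stalk 0.06, the 2 of the c-ring 0.04 and the 5 small accessory subunits of the membrane part -0.01. ATP5PB, the b subunit of the peripheral stalk, had the smallest p of all members. Its signals were 12.46, 12.43 and 12.41 with Luc siRNA and 12.05, 12.26 and 12.23 with TCTP siRNA. The control arrays were within 0.05 of each other, and the nearest TCTP siRNA array was clear of them. The change was -0.26 (SE 0.10, unadjusted p = 0.0241, adjusted p = 0.226), and the second probe of the gene had a change of -0.18 (adjusted p = 0.550 over probes). ATP5PO, the stalk subunit that gives oligomycin sensitivity its name, went in the opposite direction, with 12.15, 12.10 and 12.06 against 12.19, 12.38 and 12.30 (0.19, adjusted p = 0.397). The remaining stalk genes ATP5PD and ATP5PF had changes of -0.01 and 0.13. ATP5F1B, the catalytic beta subunit, read 13.78, 13.95 and 13.86 against 13.85, 13.84 and 13.81 (-0.03, adjusted p = 0.904). ATP5IF1, which inhibits the enzyme when the proton gradient is lost, read 9.97, 10.17 and 10.19 against 10.09, 10.56 and 10.10. Its change was 0.14 (adjusted p = 0.672) on this probe and 0.15 on the other, and on the first only replicate 2 of TCTP siRNA was outside the control range.

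A total of 93 member probes were tested, and 21 genes had more than 1 of them. In 12 of these genes all probes had changes of the same sign. In 9 they had both signs, namely in ATP5F1D, ATP5MC1, ATP5MC2, ATP5MF, ATP5MG, ATP5PD, NDUFB6, UQCR10 and UQCRB. The median gap between the highest and the lowest change of a gene was 0.10 log2 units and the largest, in UQCRB, 0.31. No member probe was called, where 1.93% of the 13484 probes were, and 3 had an unadjusted p under 0.05, against 14.5%.

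**Figure D3:**
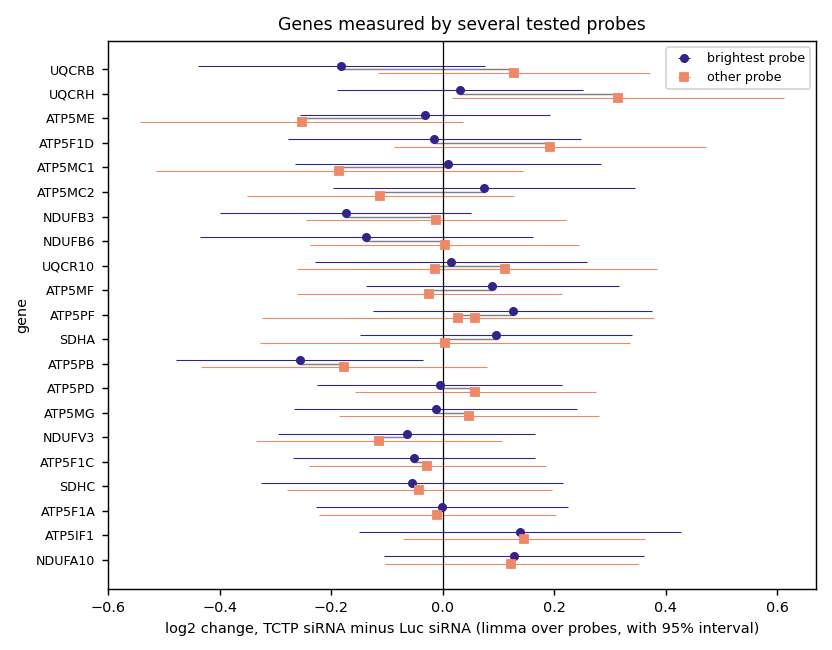
Log2 change between TCTP siRNA and Luc siRNA (x axis, 95% intervals from limma over probes) for the 21 genes with several tested probes (y axis), with circles for the brightest probe and squares for the others, ordered by the gap between probes. UQCRB has the widest gap, 0.31, and the intervals of its probes overlap.

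The members also shared deviations on single arrays. After subtraction of each gene's mean over the 6 arrays, the median deviation of the 70 members was -0.03, -0.02 and 0.05 on the Luc siRNA arrays and -0.03, 0.10 and -0.07 on those of TCTP siRNA. Replicate 2 of TCTP siRNA gave the highest signal for 31 members, 44.3%, compared with 20.9% of all genes tested, and replicate 3 the lowest for 25, 35.7%, compared with 18.7%. With each array scaled to its median instead, which shifts all genes of an array alike, the median deviation of the members on these arrays was 0.03 and -0.0026, and that of all genes tested was -0.14 and 0.10. The median of the members thus lay above that of all genes on replicate 2 and below it on replicate 3 under either scaling. The counts depended on the scaling. With median scaling, replicate 2 of TCTP siRNA gave the highest signal for 19 members and replicate 1 for 20. The lowest signal fell on replicate 3 of TCTP siRNA for 14 members and on replicate 1 of Luc siRNA for 31. The median pooled SD within groups was 0.119 for the members and 0.131 for all genes.

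**Figure D4:**
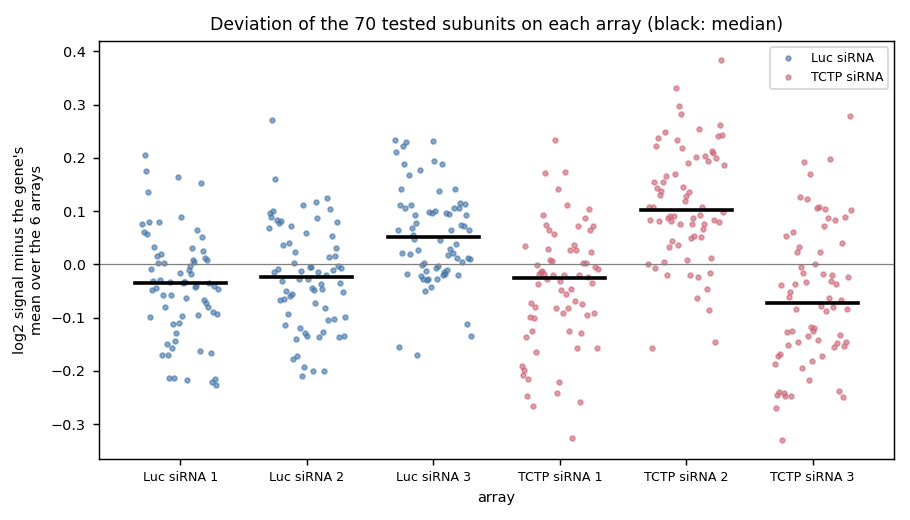
Deviation of the log2 signal of each of the 70 tested subunits from its own mean over the 6 arrays (y axis, 1 point per gene) on each array (x axis), with the median as a black line. The medians are 0.10 on replicate 2 and -0.07 on replicate 3 of TCTP siRNA, with values of both signs within each group.

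The comparison was repeated with each array left out, and no member was called in any of these fits. Without replicate 2 of TCTP siRNA, 9 members (12.9%) had an unadjusted p under 0.05, all of them lower, where 19.1% of all genes passed, 9.43% lower. They were NDUFA12 (-0.36, adjusted p = 0.078), NDUFB1 (-0.34, adjusted p = 0.0917), NDUFA1, ATP5PB, NDUFB4, NDUFC1, UQCRB, NDUFB6 and NDUFA11, of which 7 belong to complex I. Without replicate 3 of TCTP siRNA there were 3, where 17.5% of all genes passed, namely NDUFV1 (0.39, adjusted p = 0.0801), ATP5PB (-0.28) and NDUFB11 (0.26). The members had their highest median on replicate 2 and their lowest on replicate 3, so that leaving out either moves the members' changes lower or higher by construction, and nothing is read from these directions. Each of the other fits had 1 such member. It was NDUFA1 without Luc siRNA replicate 1 or 2, NDUFS1 without Luc siRNA replicate 3 and ATP5F1E without TCTP siRNA replicate 1, where 12.3%, 12.4%, 11.9% and 12.2% of all genes passed.

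Genes that build, feed or regulate the chain were counted in the same fit. None of the 13 subunits encoded in mitochondrial DNA had a probe with a symbol. Of 53 assembly factors, 47 were tested and 0 were called, while 6 had an unadjusted p under 0.05, or 12.8% against 15.6% of all genes. All 6 were lower, where 8.05% of all genes passed lower and 7.59% higher. COA6, an assembly factor of complex IV, read 7.03, 6.97 and 7.06 with Luc siRNA and 6.51, 6.82 and 6.59 with TCTP siRNA (-0.38, SE 0.11, adjusted p = 0.0838). NDUFAF7, a methyltransferase that acts early in complex I assembly, read 7.53, 7.84 and 7.75 against 7.10, 7.33 and 7.42 (-0.42, SE 0.12, adjusted p = 0.0837). In both genes the groups did not overlap, as in 19.1% of the tested assembly factors and 21.2% of all genes. Without replicate 2 of TCTP siRNA, COA6 passed the threshold (-0.47, adjusted p = 0.0268). In that fit 173 of the 8968 genes were called lower and 151 higher. Of the 77 tested genes that build, feed or regulate the chain, COA6 alone was called there. Of 18 electron carriers and carriers of ADP, ATP and phosphate, 16 were tested and 0 called. SLC25A4, a carrier that exchanges ADP for ATP, had the smallest p with a change of 0.28 (adjusted p = 0.177), followed by ETFDH, which feeds electrons from fatty acid oxidation to ubiquinone (-0.18, adjusted p = 0.424). Of 17 regulators of respiratory genes and of mitochondrial DNA, 14 were tested and 0 called. The smallest p values were those of TFB2M (-0.27, adjusted p = 0.175) and TFAM (-0.26, adjusted p = 0.207), which start transcription of mitochondrial DNA. TFAM read 10.28, 10.20 and 10.19 with Luc siRNA and 9.93, 9.92 and 10.04 with TCTP siRNA, without overlap.

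Further genes fit the rule by current naming but were not analysed here, among them ATP5MC3, ATP5MF-PTCD1, ATP5MGL, COX7A2L, NDUFA2, NDUFA6, NDUFB9, NDUFC2-KCTD14, SDHB, UQCRFS1 and UQCRHL. They include the Rieske protein UQCRFS1 of complex III, so that the values above cover the complexes in part.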

How the data were processed

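The authors hybridised biotin-labelled RNA of 3 TCTP siRNA and 3 Luc siRNA samples and deposited BeadStudio summary intensities, neither normalized nor background-corrected, with a detection p-value per probe. The authors also deposited quantile-normalized intensities, which differed by at most 0.029 log2 units from those computed here. Groups were taken from the labels. Intensities were quantile-normalized, put on the log2 scale and compared with limma 3.58.1 (lmFit and eBayes) in R 4.3.3, with Benjamini-Hochberg adjustment over 8968 genes or 13484 probes, and called at an adjusted p under 0.05. Probes carried the platform's gene identifiers, updated to the symbols of GRCh38.p14. A single symbol was paired with 27578 probes of 48803, several with 13 and none with 21212. The study's methods name SAM and feature selection, for which the sources used here give no settings. No beadchip or scan batch is recorded in the files, and the number of arrays limits the precision.

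The members and lists were chosen with earlier results of these data known. Members named in the text are those with an unadjusted p under 0.05, the pair with the smallest p and the gene with the highest signal in each complex, the SDH genes, ATP5IF1, UQCRH and the tissue forms of complex IV. Members whose probes differ in call, or in sign with 1 probe at an unadjusted p under 0.05, were also to be named, and there were none. The other members were chosen after their values were seen. From each list the pair with the smallest p is named. The fit was repeated with each array left out, with the replicate number as a block and at an adjusted p under 0.1. Background was corrected by normexp (offset 50) or neqc (offset 16), and arrays were scaled by cyclic loess or to their medians, or taken as the authors normalized them. Detection filters were loosened, tightened or dropped, genes were represented by the mean of their probes or by each probe, and eBayes was run in its robust form with a trend. The script was tested on simulated arrays.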

Additional observations from a re-analysis of the deposited data

How the results depend on the processing

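No member was called under any of the 17 alternative fits over genes or over every probe. The smallest adjusted p of a member in them was 0.078 (NDUFA12 without TCTP siRNA replicate 2), and the changes ran from -0.36 to 0.39. The median change of the members was 0.08 under median scaling, where that of all genes was 0.0344, and between -0.02 and 0.04 with 1 array left out. Over all genes the counts depended more on the processing. Against 136 lower and 93 higher, there were 35 and 17 under median scaling, 244 and 184 at an adjusted p under 0.1, and from 53 to 173 and from 30 to 151 with 1 array left out. Of the other genes of the pathway, 2 were called lower at an adjusted p under 0.1 and from 0 to 1 with 1 array left out. Under median scaling the sign turned for ATP5F1B (0.0076), COX7A2 (0.0335), COX8A (0.0148) and SDHC (0.0052), all below the median of 0.0344 that this scaling gave all genes, so that relative to it none of them turned. With 1 array left out, the sign turned for genes whose changes with all arrays lay between -0.07 and 0.14, over the ranges -0.0751 to 0.0101 for ATP5F1B, -0.0182 to 0.2198 for ATP5IF1, -0.0344 to 0.0246 for COX4I1, -0.1246 to 0.0058 for COX6A1, -0.0106 to 0.1683 for COX7B, -0.1006 to 0.1901 for COX7B2, -0.012 to 0.0783 for COX7C, -0.1800 to 0.0071 for COX8A, -0.1767 to 0.0404 for SDHC, -0.0359 to 0.1813 for SDHD and -0.0291 to 0.0841 for UQCRH. The cause was not tested.

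Arrays with the same replicate number did not deviate together (correlations of deviations -0.0711, -0.0584 and -0.396, against -0.359 to 0.489 for different numbers). No Luc siRNA array correlated best with its own number, and the samples share only a number. With the replicate block, 73 genes were lower and 45 higher, and no member was called.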

Other observations

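Genes that bear an older symbol of the set, but not a current one, were kept apart. COXFA4, formerly NDUFA4 and now placed in complex IV, had a log2 change of 0.04 (adjusted p = 0.875). COXFA4L2, formerly NDUFA4L2, which is known from other work as a target of hypoxia, read 9.04, 9.80 and 8.67 with Luc siRNA and 10.23, 9.11 and 9.88 with TCTP siRNA. Its change of 0.57 (limma, SE 0.28, adjusted p = 0.344) is larger than that of any tested member, but its arrays ranged widely within both groups, with SDs of 0.579 and 0.570, and the groups overlapped. DMAC2L, formerly ATP5S, had a change of -0.28 (adjusted p = 0.268) and DMAC2 of -0.05. ATP5F1EP2, a pseudogene of the epsilon subunit, read 13.30, 13.26 and 13.36 against 13.25, 13.46 and 13.25, a change of 0.01 (adjusted p = 0.980). Its probe and that of ATP5F1E could in part measure the same transcript, which was not tested. Counting COXFA4 and COXFA4L2 as members, an alternative added after seeing the data, gave a median log2 change of 0.02 for all members and 0.04 for complex IV.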
